A study of Mus musculus with 15 samples.

Results

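The 9 genes described here are periportal markers and genes of glucose production and amino acid use in the mouse hepatocyte: Cyp2f2, Hsd17b13, Pck1, Fbp1, Sds, Gls2, Tat, Pigr and Etnppl. They are given by name, with no threshold on a measured value, but were chosen with earlier results of these data known. The 55984 gene symbols of the count table held all 9. All 9 were among the 17488 genes with enough counts to be tested. RNA was measured in hepatocytes that were sorted by DNA content, and the question behind the sort was whether ploidy, or the number of nuclei at the same ploidy, goes along with differences in gene expression.

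All samples came from wild-type (WT) adult male C57BL/6JJcl mice without any allele or agent. Hepatocytes were isolated by perfusion of the liver with collagenase and stained with the DNA dye Hoechst in the presence of reserpine and DNase. The 2n-whole and 4n-whole populations held diploid and tetraploid cells. The 4n cells were also split by the peak height of the Hoechst signal into 4n-top, enriched for cells with 1 nucleus, and 4n-bottom, enriched for cells with 2 nuclei. Each population was sorted from the same 4 mice, except that 4n-top had libraries of mice 2, 3 and 4 only, which gave 15 libraries. The sort was made once, so 4n-top still held many binucleated cells, and each library is the average over a sorted population and not over single cells. After the sort the 2n cells were spun down faster than the 4n cells.

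Hepatocytes along the axis from the portal to the central vein differ in their work. Those near the portal vein, which receive blood rich in oxygen and in hormones and nutrients from the gut, are known for making glucose and urea and for breaking down amino acids. Those near the central vein are known for glutamine synthesis and for the oxidation of foreign compounds. Cyp2f2 and Hsd17b13 are widely used as markers of the periportal side. Pck1 and Fbp1 encode the cytosolic phosphoenolpyruvate carboxykinase and fructose-1,6-bisphosphatase, which carry out irreversible steps of gluconeogenesis, and Sds (serine dehydratase), Gls2 (the liver glutaminase) and Tat (tyrosine aminotransferase) bring amino acid carbon into that pathway. Pck1 and Tat are classic targets of glucagon, acting through cAMP, and of glucocorticoids. Pigr encodes the receptor that carries polymeric IgA into bile, and Etnppl encodes an enzyme that breaks down phosphoethanolamine.

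Total counts per library ranged from 22049498 to 42096421. The lowest count of any of the 9 genes in any library was 3270, for Sds. Levels are given as CPM, which puts all libraries on a common total after TMM normalization, and are therefore relative to the other RNA of a library. Hepatocyte markers were abundant in all populations, with 6 of them summing to between 72800 and 103000 CPM in each library. The 31 markers of endothelial, myeloid, stellate, bile duct, lymphoid and red blood cells summed to 56.1 to 73.2 CPM in 2n-whole, 22.0 to 59.3 in 4n-whole, 27.2 to 53.7 in 4n-bottom and 26.2 to 47.6 in 4n-top. Every 2n-whole library was above every 4n-bottom and 4n-top library, while 4n-whole overlapped with 2n-whole. Of the bile duct markers Krt7 was at 0 in all 4n-whole libraries, Epcam in all 4n-bottom libraries and Krt7, Krt19 and Epcam in all 4n-top libraries. In such bulk libraries a smaller share of cells that express a gene and less of its RNA per cell cannot be told apart.

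On the scale of CPM per kb of exon, averaged over the 15 libraries, Pck1 and Tat were the most abundant of the 9. Pck1 was at 1060 and Tat at 946 CPM per kb, followed by Pigr at 465, Fbp1 at 367, Cyp2f2 at 285 and Hsd17b13 at 195. Gls2 at 151, Sds at 81.7 and Etnppl at 55.0 CPM per kb were the lowest, and the annotated exons of Etnppl cover 9321 bases, more than those of any other of the 9. The 9 genes together made up between 0.899% and 1.49% of the counts of a library. Their closest relatives in the genome were far less abundant. Pck2, the mitochondrial form of the Pck1 enzyme, was at 0.305 CPM per kb and Fbp2, the muscle form of fructose-1,6-bisphosphatase, at 0.0378. Sdsl at 8.18, Hsd17b11 at 33.5 and Phykpl at 1.36 CPM per kb were also below their counterparts Sds, Hsd17b13 and Etnppl.

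The first comparison asked whether tetraploid hepatocytes differed from diploid ones. Of the 9 genes, 3 were lower in 4n-whole than in 2n-whole: Cyp2f2 at 0.601, Hsd17b13 at 0.654 and Etnppl at 0.698 of the diploid level. The gluconeogenic Pck1 and the amino acid enzyme Tat were fitted at 0.975 and 0.949 of the diploid level. A gene was called at an adjusted p under 0.05 and an absolute log2 fold change over 0.5 in edgeR's quasi-likelihood test with the mouse as a block. These 3 of 9 genes were called, where 3.47% of all tested genes were called in either direction and 1.73% were called lower. By the adjusted p alone 5 of 9 passed, against 5.47% of all tested genes. All 9 fitted log2 fold changes were below 0, with a median of -0.33, against 50.7% of all tested genes and a median of -0.01.

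Cyp2f2, a cytochrome P450, stood at 1383, 1146, 1026 and 1259 CPM in 2n-whole of mice 1 to 4 and at 939, 645, 761 and 581 CPM in 4n-whole. The lowest diploid library lay above the highest tetraploid one, and the level was lower in 4n-whole in each of the 4 mice. The log2 fold change was -0.73 (SE 0.11, edgeR adjusted p = 7.74e-05), with log2 ratios within the mice from -1.11 in mouse 4 to -0.43 in mouse 3. Cyp2f2 stood at 1221, 1049.8, 814 and 943 CPM in 4n-bottom, and at 975, 867 and 622 CPM in 4n-top of mice 2, 3 and 4. Both fractions overlapped with 4n-whole, and every 4n-top library was below every 2n-whole library.

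Hsd17b13, a dehydrogenase of the lipid droplet, stood at 473, 491, 529.9 and 543 CPM in 2n-whole of mice 1 to 4 and at 298, 341, 416 and 289.6 CPM in 4n-whole. Again no tetraploid library reached the lowest diploid one. The log2 fold change was -0.61 (SE 0.10, edgeR adjusted p = 0.000441) and the level was lower in 4 of 4 mice. In 4n-bottom it stood at 418, 447, 475 and 453 CPM, all above the 4n-whole libraries, and in 4n-top of mice 2, 3 and 4 at 469.7, 386 and 295 CPM. The 3 4n-top libraries were spread over the whole range from the 4n-whole to the 4n-bottom level.

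Etnppl was at 341, 478, 853 and 682 CPM in 2n-whole of mice 1 to 4 and at 265, 309.9, 703 and 391 CPM in 4n-whole. The populations overlapped, yet in each mouse the tetraploid library was below the diploid one. The log2 fold change was -0.52 (SE 0.10, edgeR adjusted p = 0.00148), just past the limit of 0.5, and it missed this limit at -0.49 without mouse 2 and at -0.43 without mouse 4. Etnppl stood at 359.8, 446, 790.3 and 575 CPM in 4n-bottom and at 427, 679.8 and 396 CPM in 4n-top of mice 2, 3 and 4. Mouse 3 was the highest in every population.

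Fbp1 stood at 945, 962, 867 and 1156 CPM in 2n-whole of mice 1 to 4 and at 705, 709, 725 and 756 CPM in 4n-whole. The 4n-whole libraries lay close together and all below the diploid ones. The log2 fold change of -0.43 (SE 0.09, edgeR adjusted p = 0.00249) passed the adjusted p but not the limit on the fold change. In 4n-bottom Fbp1 was at 879, 966, 776 and 1026 CPM and in 4n-top of mice 2, 3 and 4 at 936, 758 and 794 CPM, so that every library of both fractions was above every 4n-whole library. Cyp2f2, Hsd17b13 and Fbp1 were the 3 of the 9 genes for which every 4n-whole library was below every 2n-whole library, a pattern seen in 3.09% of all tested genes. The libraries of 4n-whole and 4n-bottom did not overlap for 3 of the 9 genes, and those of 4n-whole and 4n-top for 1. For comparisons with the fractions the share of all tested genes without overlap was not counted.

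Sds, which turns serine into pyruvate, stood at 128, 129.7, 216 and 209.6 CPM in 2n-whole of mice 1 to 4 and at 89.3, 131, 157 and 161 CPM in 4n-whole. The level was lower in mice 1, 3 and 4 and about the same in mouse 2, with a log2 fold change of -0.33 (SE 0.10, edgeR adjusted p = 0.0435) that did not reach the limit of 0.5. Sds was at 123, 116, 215 and 193 CPM in 4n-bottom and at 111, 155 and 148 CPM in 4n-top of mice 2, 3 and 4. All 4 populations overlapped, since the libraries of mice 3 and 4 were high throughout.

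Pigr stood at 2136, 1778, 1893 and 2255 CPM in 2n-whole of mice 1 to 4 and at 1749, 1484, 1835 and 1747 CPM in 4n-whole. It was lower in 4n-whole in 4 of 4 mice, but the log2 fold change of -0.24 (SE 0.08, edgeR adjusted p = 0.0781) did not pass the threshold. Pigr is made by bile duct cells as well, and the 5 bile duct markers (Krt7, Krt19, Epcam, Sox9 and Spp1) summed to a median of 42.6 CPM in 2n-whole and 20.2 CPM in 4n-whole. In 4n-top, with Krt7, Krt19 and Epcam at 0 in all libraries, Sox9 and Spp1 alone gave a median of 20.3 CPM. The sum is therefore no measure of the number of bile duct cells. With the mean log2 CPM of the 31 markers of other cell types as a covariate, Pigr was at -0.25 (edgeR adjusted p = 0.476). The part of bile duct cells alone in the result was not tested. In 4n-bottom it was at 1959, 1863, 2012 and 2092 CPM, above all 4n-whole libraries, and in 4n-top of mice 2, 3 and 4 at 1901, 1734 and 1777 CPM.

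Gls2 and Tat moved little between the populations. Gls2 was at 634, 649.5, 655 and 814 CPM in 2n-whole of mice 1 to 4, at 489, 721, 546 and 643 CPM in 4n-whole, at 633, 761, 640.2 and 769.7 CPM in 4n-bottom and at 757, 565 and 636 CPM in 4n-top of mice 2, 3 and 4. Its log2 fold change of 4n-whole against 2n-whole was -0.21 (SE 0.09, edgeR adjusted p = 0.168), with mouse 2 going the other way. Tat was at 2458, 2045, 2408 and 2282 CPM in 2n-whole, at 2114, 2059.9, 2529 and 2049.8 CPM in 4n-whole, at 2182, 2188, 2714 and 2323 CPM in 4n-bottom and at 2078, 2661 and 2103 CPM in 4n-top. For Tat the difference was -0.08 on the log2 scale (SE 0.08, edgeR adjusted p = 0.644), and 2 mice went each way.

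Pck1 was at 3224, 2180.1, 5764 and 4871 CPM in 2n-whole of mice 1 to 4 and at 2644, 2759, 4960.0 and 4879.6 CPM in 4n-whole. The log2 fold change was -0.04 (SE 0.09, edgeR adjusted p = 0.875), and its sign depended on the mice, being 0.05 without mouse 1 and 0.02 without mouse 3. Pck1 was at 3016, 2277, 6148 and 4837 CPM in 4n-bottom and at 2126, 4782 and 4494 CPM in 4n-top of mice 2, 3 and 4. In all 4 populations mouse 2 or mouse 1 was the lowest and mouse 3 the highest.

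**Figure D1:**
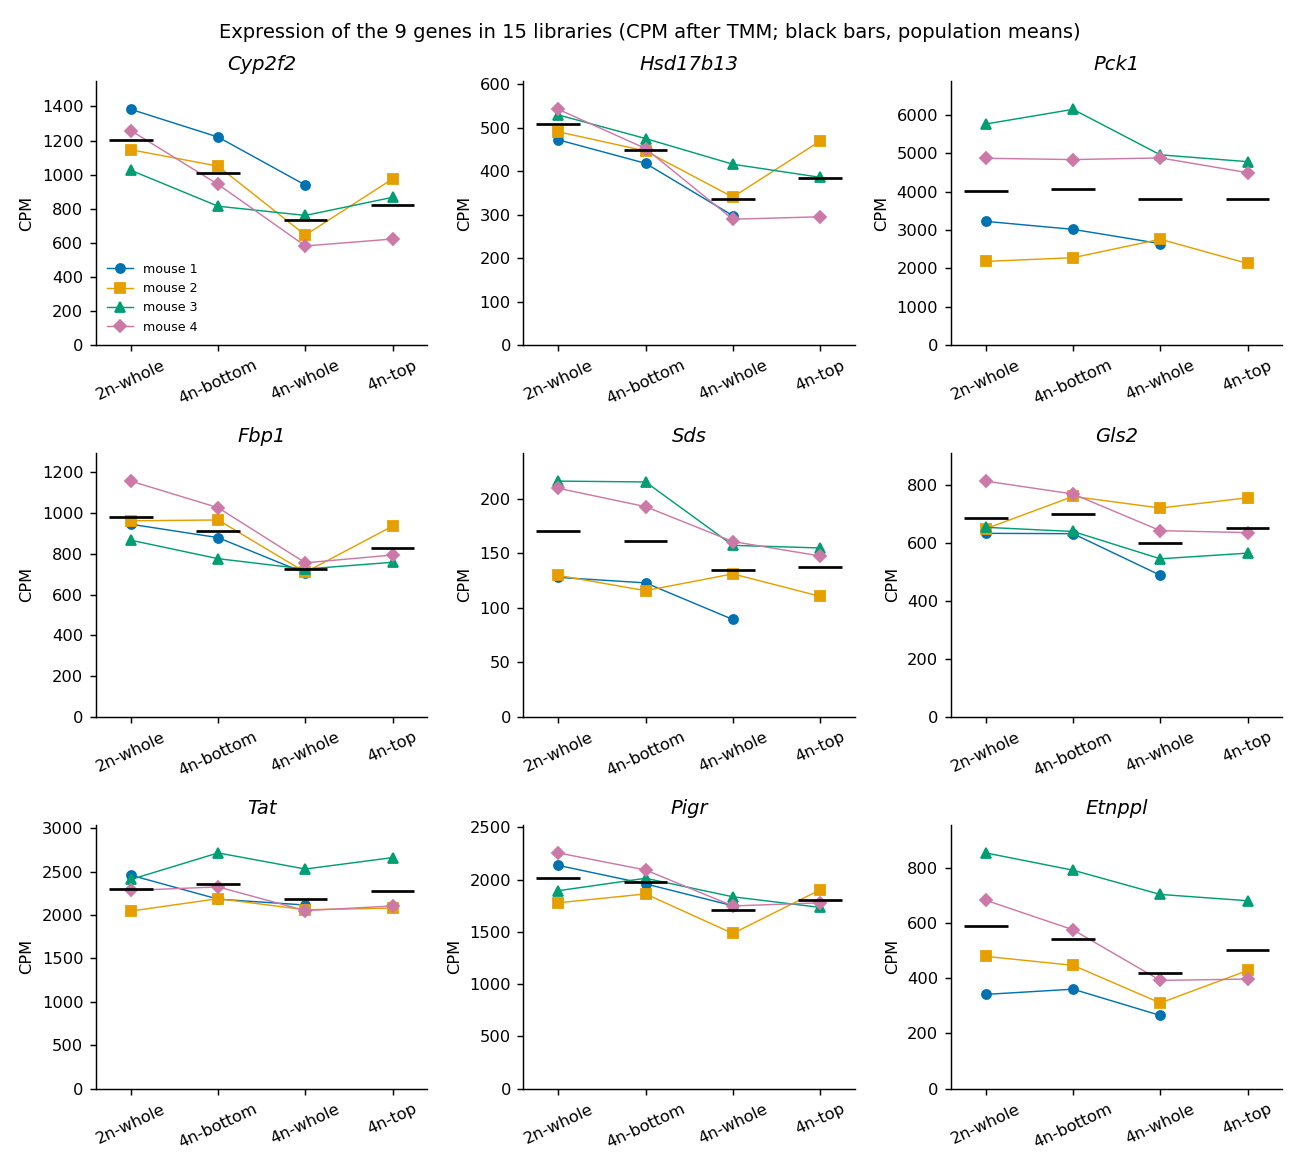
Level of each of the 9 genes in CPM (vertical axis, linear and from 0) in the 15 libraries, by population (horizontal axis), with 1 coloured line and symbol per mouse and black bars for the population means. Cyp2f2, Hsd17b13 and Fbp1 were lower in every 4n-whole library than in any 2n-whole library, whereas the lines of Pck1, Sds and Etnppl were ordered mainly by mouse.

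RNA of the markers of other cell types moved with this comparison. Of 22 tested markers of other cell types, 21 were lower in 4n-whole and 2 of them, both on the bile duct list, were called lower. These values are not a count of cells. Whether the marker RNA came from other cells or from the hepatocytes was not tested, and a covariate made from it shares this limit. With the mean log2 CPM of all 31 markers of other cell types, tested or not, as a covariate, 0 of the 9 genes were called in edgeR. Cyp2f2 was at -0.51 (adjusted p = 0.243), Hsd17b13 at -0.45 (adjusted p = 0.283) and Etnppl at -0.35 (adjusted p = 0.38). The SE was wider in this fit, for Cyp2f2 0.17 with the covariate and 0.11 without it. All 9 fold changes stayed below 0 with the covariate, and 42 of all tested genes were called with it instead of 607. Without the mouse as a block 0 of the 9 were called as well, with Cyp2f2 at -0.72 (adjusted p = 0.0982), and 40 of all tested genes were.

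The second comparison asked whether tetraploid cells with 1 nucleus differed from those with 2 nuclei. None of the 9 genes was called between 4n-top and 4n-bottom: edgeR and DESeq2 each called 0 of 9, and edgeR called 0.0114% of all tested genes. At an unadjusted p under 0.05 there were 3 of 9 genes in edgeR, against 2.79% of all tested genes. These were Sds at -0.34 (SE 0.11, unadjusted p = 0.00413), Etnppl at -0.29 (SE 0.11, unadjusted p = 0.0132) and Hsd17b13 at -0.28 (SE 0.11, unadjusted p = 0.0223), and the adjusted p of each was 1.0 in edgeR. All 9 fitted log2 fold changes were below 0, with a median of -0.19, where 49.8% of all tested genes were below 0. Sds and Etnppl were lower in 4n-top in 3 of 3 mice, while Hsd17b13 was higher in mouse 2, with a log2 ratio of 0.07, and lower in mice 3 and 4, with -0.30 and -0.62.

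The fractions were also set against the diploid cells, so that these comparisons share the 2n-whole libraries with the first. Between 4n-bottom and 2n-whole edgeR and DESeq2 called 0 of the 9 genes, against 0.463% of all tested genes in edgeR. An unadjusted p under 0.05 was reached by 1 of 9, close to the 10.2% of all tested genes. That gene was Cyp2f2, at -0.27 (SE 0.11, unadjusted p = 0.0197, edgeR adjusted p = 0.364), lower in 4 of 4 mice. The median over the 9 was -0.08. Between 4n-top and 2n-whole the median was -0.25 and 5 of 9 had an unadjusted p under 0.05 (11.3% of all tested genes), with 0 called by edgeR and 0 by DESeq2, against 0.961% of all tested genes in edgeR. Hsd17b13 was at -0.46 (SE 0.11, edgeR adjusted p = 0.0425), which missed the limit of 0.5, Cyp2f2 at -0.47 (SE 0.12, adjusted p = 0.0571) and Sds at -0.42 (SE 0.11, adjusted p = 0.0532). In DESeq2 with the mouse as a block the adjusted p was 0.0026 for Hsd17b13, 0.00726 for Cyp2f2, 0.00424 for Sds and 0.0103 for Etnppl. There the limit of 0.5 alone kept these genes from a call, and the remaining genes did not pass the adjusted p. DESeq2 called 1.88% of all tested genes. The count of 0 called by edgeR rested on mouse 2, without which 4 genes were called. These were Cyp2f2 at -0.60, Hsd17b13 at -0.69, Sds at -0.52 and Etnppl at -0.53, where 1.29% of all genes tested without that mouse were called. Without mouse 3, Cyp2f2 alone of the 9 was called, at -0.56, against 0.739% of all genes tested. In mouse 2 the 4n-top library stood near the diploid level for Hsd17b13, with a log2 ratio of -0.06, whereas in mouse 4 it was -0.88.

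**Figure D2:**
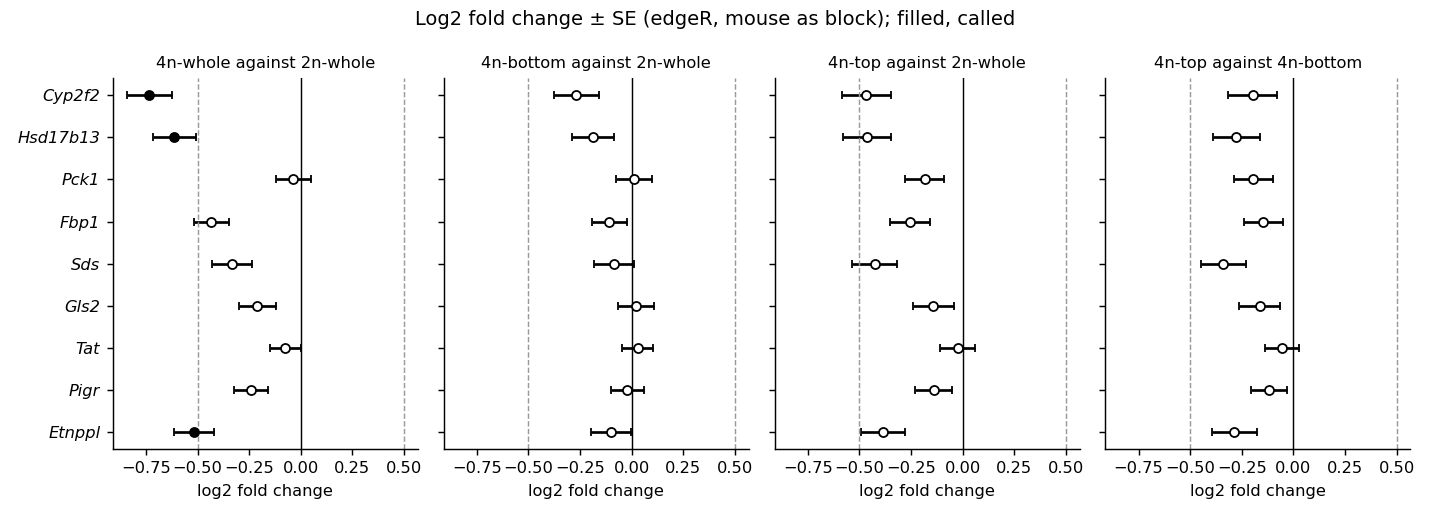
Log2 fold change of each of the 9 genes (horizontal axis, bars are ± SE of the edgeR fit) in 4 comparisons, with filled points for called genes and dashed lines at the limit of 0.5 in each direction. Filled points appear in the first panel alone, for Cyp2f2, Hsd17b13 and Etnppl, and all 9 points lie below 0 in each panel but that of 4n-bottom against 2n-whole.

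The whole 4n population was also set against its 2 fractions. The fitted level in 4n-whole was below both 4n-bottom and 4n-top for 7 of the 9 genes, and between them for Pck1 and Sds, whereas 35.7% of all tested genes were below both, 34.4% above both and 29.9% between. Against 4n-bottom, 4n-whole was lower for all 9 (51.2% of all tested genes), with a median of -0.25. An unadjusted p under 0.05 was reached by 7 of 9 (5.57% of all tested genes), but edgeR and DESeq2 each called 0 of 9 and edgeR called 0.00572% of all tested genes. Cyp2f2 was at -0.47, Hsd17b13 at -0.43 and Etnppl at -0.42, each lower in 4 of 4 mice, with adjusted p of 0.183, 0.205 and 0.183 in edgeR. In DESeq2 with the mouse as a block their adjusted p was 0.0233, 0.0277 and 0.0135, and that of Fbp1 was 0.0372. There the limit of 0.5 alone kept these genes from a call, and the remaining genes did not pass the adjusted p. DESeq2 called 0.252% of all tested genes. Without mouse 3 edgeR called Cyp2f2, Hsd17b13 and Etnppl, at -0.59, -0.51 and -0.51, where 0.351% of all genes tested without that mouse were called. Against 4n-top, 7 of 9 were lower in 4n-whole, 1 of them (Cyp2f2) at an unadjusted p under 0.05 (0.033), with 0 called by edgeR and 0 by DESeq2 and 0.0% of all tested genes called by edgeR. The sign of Hsd17b13, Pigr and Etnppl in this comparison turned without mouse 2.

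Ordered by their fitted levels, Cyp2f2, Hsd17b13, Fbp1, Pigr and Etnppl ran from 2n-whole over 4n-bottom and 4n-top to 4n-whole. For Sds 4n-top was below 4n-whole. For Gls2, Tat and Pck1 4n-bottom came before 2n-whole. Of the steps between neighbours in these orders, none was called, since the called differences were those between 2n-whole and 4n-whole.

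The fitted range between mice was wider than that between populations for 5 of the 9 genes. An F test of the mouse terms of the same edgeR model gave an adjusted p under 0.05 for 6 of 9, against 19.2% of all tested genes, namely Pck1 (3.38e-11), Etnppl (2.25e-09), Sds (1.72e-06), Gls2 (0.014), Cyp2f2 (0.0184) and Tat (0.0189). Fbp1 (0.155), Hsd17b13 (0.178) and Pigr (0.458) did not pass. The labels give neither the day of isolation nor the time of feeding, and a difference between livers and a difference in their handling cannot be told apart.

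For Pck1 the fitted range between mice was 2.31-fold, while that between populations was 1.14-fold. Its 4 libraries of mouse 3 lay between 4782 and 6148 CPM and those of mouse 4 between 4494 and 4879.6, whereas mouse 1 lay between 2644 and 3224 and mouse 2 between 2126 and 2759. Every library of mice 3 and 4 was thus above every library of mice 1 and 2, in diploid and tetraploid cells alike. Sds also had all libraries of mice 3 and 4 above those of mice 1 and 2, with 154.9 to 216 CPM in mouse 3, 148 to 209.6 in mouse 4, 111 to 131 in mouse 2 and 89.3 to 128 in mouse 1. Its fitted range was 1.72-fold between mice and 1.34-fold between populations. How many of all tested genes split mice 3 and 4 from mice 1 and 2 in this way was not counted.

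Etnppl had the widest range between mice, 2.44-fold against 1.43-fold between populations. Mouse 3 lay between 679.8 and 853 CPM, mouse 4 between 391 and 681.6, mouse 2 between 309.9 and 478 and mouse 1 between 265 and 359.8 CPM, so that neighbouring mice overlapped. Cyp2f2 went another way, with the highest fitted level in mouse 1 and the lowest in mouse 4, and its range between mice of 1.39-fold was below that between populations of 1.66-fold. Gls2 (1.26-fold between mice, highest in mouse 2) and Tat (1.23-fold, highest in mouse 3) differed by less. Each of these 3 smaller differences failed to pass in edgeR once a certain mouse was left out. The adjusted p of Cyp2f2 was 0.448 without mouse 1 and that of Tat 0.805 without mouse 3. That of Gls2 was 0.0563 without mouse 1, just past the threshold (unadjusted p = 0.00995 in edgeR). Hsd17b13 passed without mouse 2 (adjusted p = 0.0284).

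**Figure D3:**
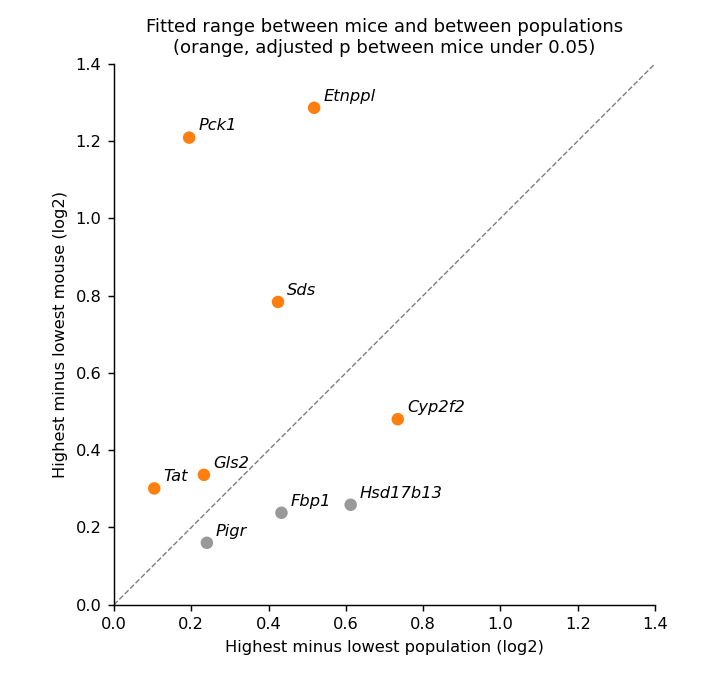
Fitted log2 range of each gene between the highest and lowest mouse (vertical axis) against that between the highest and lowest population (horizontal axis), with the dashed line where both are equal and orange points for an adjusted p between mice under 0.05. Pck1, Etnppl and Sds lie far above the line and Cyp2f2 and Hsd17b13 below it.

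The 9 genes were compared with each other over the 15 libraries, which come from 4 mice and share their depth and scaling, so that the correlations are a description. With the mouse effect removed, the 36 pairs had a median r of 0.657, and 35 of them were above 0. Cyp2f2 and Fbp1 were the most alike (r = 0.983), followed by pairs such as Cyp2f2 and Etnppl (r = 0.959), while Cyp2f2 and Pck1 had an r of -0.03. With the population effect removed instead, the median r was 0.221 and 12 pairs were below 0. Pck1 and Sds then had an r of 0.914 and Sds and Etnppl one of 0.812, while that of Cyp2f2 and Sds was -0.68. Cyp2f2 and Sds, both periportal, thus had an r above 0 with the mouse effect removed (0.57, under the median of 0.657). Their r was below 0 with the population effect removed, where differences between only 4 mice weigh.

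Among 7371 genes of at least 3 on the mean log2 CPM scale, the 3 whose level was most like that of each member were listed, again with the mouse effect removed and over 15 libraries. For Cyp2f2 these included Fbp1 and Cyp4v3 (r = 0.981), and for Hsd17b13 Cdh1 (r = 0.978), Acly (r = 0.974) and Etnppl (r = 0.967). Fbp1 had Cyp2f2, Etnppl and Hsd17b13 as its 3, all among the 9 genes, and Etnppl had Fbp1, Hsd17b13 and the protease gene Ctsc (r = 0.962). Pck1 was most like Tmem82 (r = 0.941), Asap3 (r = 0.891) and Cbs (r = 0.874). Sds had Gldc (r = 0.932), Eppk1 (r = 0.932) and Hal (r = 0.92), and Gls2 had Cryl1 (r = 0.94), Hal (r = 0.934) and Gldc (r = 0.921). Gldc and Hal, which break down glycine and histidine, were on both lists. Tat, with Pisd (r = 0.857), Trf (r = 0.83) and Ctsd (r = 0.82), had the lowest values, and Pigr had Acmsd (r = 0.937), Gusb (r = 0.931) and Esr1 (r = 0.923).

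Other genes of the same pathways were taken from written lists. Of 17 other gluconeogenesis enzymes and carriers, 0 were called in edgeR between 4n-whole and 2n-whole, with a median of 0.02 on the log2 scale. Mdh2 was at 0.22 (edgeR adjusted p = 0.147) and Mdh1 at -0.15 (adjusted p = 0.324). Between mice 11 of the 17 passed. G6pc1, the catalytic subunit of glucose-6-phosphatase and the last step of glucose production, was chosen after its values were seen, as was Got1. G6pc1 ran from 484 to 516 CPM in mouse 2, 534 to 613 in mouse 3, 640.0 to 690.0 in mouse 1 and 648 to 727 in mouse 4, which is not the order of Pck1. Got1, the cytosolic aspartate aminotransferase, ran from 204 to 264 CPM in mice 1 and 2 and from 330.0 to 424 CPM in mice 3 and 4, as Pck1 did.

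Of 15 regulators of gluconeogenesis, 2 were called higher and 1 lower in 4n-whole than in 2n-whole, with a median of 0.09. Igfbp1, a secreted insulin-repressed protein, was higher by 0.80 (edgeR adjusted p = 2.25e-05) and Gcgr, the glucagon receptor, by 0.54 (adjusted p = 0.00529), while the coactivator gene Ppargc1a was at -0.59 (adjusted p = 0.00682). Between mice 8 of the 15 passed. Igfbp1 ran from 41.3 to 83.6 CPM in mouse 2 and from 183 to 266 CPM in mouse 3, and Ppargc1a from 10.5 to 13.2 CPM in mouse 2, from 17.9 to 28.8 CPM in mouse 3 and from 18.6 to 31.4 CPM in mouse 4. Mouse 2 had the lowest library of both genes.

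Among 10 genes of glycolysis and glucose storage, 1 was called higher and 2 lower in 4n-whole, and 9 passed between mice. The lower genes were Slc2a2, the glucose transporter of hepatocytes, and Ugp2, which makes UDP-glucose, at -0.65 (edgeR adjusted p = 0.00164) and -0.60 (adjusted p = 0.00316). Of 19 tested genes of other amino acid use, 1 was called higher and 0 lower, with 9 different between mice. It was Prodh2, at 0.53 (adjusted p = 0.00529), followed by Prodh at 0.39 (adjusted p = 0.0158) and Tdo2 at -0.32 (adjusted p = 0.0167), which did not reach the limit of 0.5. Of 10 amino acid transporters, Slc1a2, which takes up glutamate, was called higher at 1.58 (adjusted p = 3.7e-06) and Slc3a1 lower at -0.80 (adjusted p = 4.54e-05), Slc7a2 was at -0.32 (adjusted p = 0.0157), and 6 passed between mice. Of the 6 relatives of the 9 genes 0 were called, with Sdsl at -0.33 (adjusted p = 0.175), and 2 passed between mice.

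The 9 genes were set beside 11 other periportal and 11 pericentral markers, the poles of the lobule. Of the other periportal markers 3 were called lower and 0 higher in 4n-whole than in 2n-whole, with a median of -0.26. These were Aldh1b1 at -1.16 (edgeR adjusted p = 5.35e-07), Ctsc at -0.88 (adjusted p = 4.43e-05) and Cdh1 at -0.63 (adjusted p = 0.000246). All 11 pericentral markers were called higher, with a median of 1.58, among them Cyp2a5 at 1.60, Cyp1a2 at 1.65 and Gulo at 1.57 (adjusted p = 7.05e-08, 9.1e-08 and 2.43e-07 in edgeR). The called decreases of Cyp2f2, Hsd17b13 and Etnppl were thus smaller in size than the increase of any pericentral marker, of which Lect2 at 1.03 had the least. Slc1a2 is on the pericentral list too. Between mice 7 of the 11 periportal and 10 of the 11 pericentral markers passed.

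Between 4n-top and 4n-bottom few genes of the lists were called. Of the other periportal markers 0 were called and 10 of 11 were lower in 4n-top, led by Aldh1b1 at -0.63, Cdh1 at -0.42 and Ctsc at -0.52 (adjusted p = 0.266, 0.907 and 0.907 in edgeR). Of the pericentral markers 1 was called, Glul, the glutamine synthetase, which was lower in 4n-top at -0.90 (adjusted p = 0.0499), and 8 of 11 were higher. In the lists of gluconeogenesis, its regulators, glucose storage, amino acid use, transporters and relatives 0 genes were called. The closest were Mpc1 at 0.48 (unadjusted p = 0.0024) and Ppargc1a at -0.36 (unadjusted p = 0.0189), each with an adjusted p of 1.0 in edgeR, and Slc1a2 at -1.08 (adjusted p = 0.0663).

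**Figure D4:**
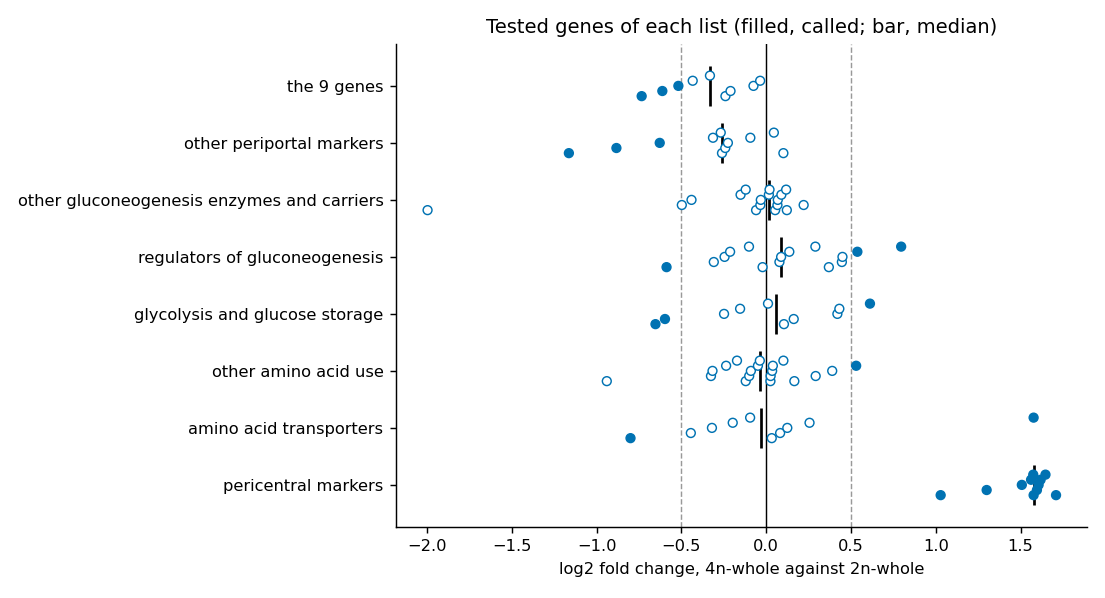
Log2 fold change of 4n-whole against 2n-whole (horizontal axis) for each tested gene of 8 lists (rows), with filled points for called genes, black bars for the list medians and dashed lines at the limit of 0.5 in each direction. The pericentral markers lie between 1.03 and 1.71, the 9 genes and the other periportal markers have medians of -0.33 and -0.26, and the other lists have medians near 0.

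The 9 genes lie on 8 chromosomes of the mouse genome (GRCm39, GENCODE M39), all protein-coding. Cyp2f2 is at chr7:26819322-26833090 and Pck1 at chr2:172994744-173001066, both on the plus strand, Hsd17b13 at chr5:104103306-104125281 and Fbp1 at chr13:63012567-63036263, both on the minus strand. The remaining 5, all on the plus strand, are Sds at chr5:120614585-120621997, Gls2 at chr10:128030316-128045873, Tat at chr8:110717063-110726435, Pigr at chr1:130754397-130779986 and Etnppl at chr3:130411097-130431441. Hsd17b13 and Gls2 each overlap 1 long noncoding gene on the same strand, Gm71711 and Gm52965, so reads in the shared stretch are uncertain. Sds and Gls2 also overlap protein-coding genes on the other strand, Plbd2 and Spryd4.

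The promoters of Pck1 and Sds are shown because both genes were higher in every library of mice 3 and 4 than in any of mice 1 and 2. That split was seen in Got1 too, and its share over all tested genes was not counted. The promoter of Cyp2f2 is shown because this gene had the clearest difference between populations. Each runs from 250 bases before to 50 bases after the start of the main transcript, read from GRCm39 on the plus strand, Pck1 at chr2:172994591-172994890, Sds at chr5:120614335-120614634 and Cyp2f2 at chr7:26819073-26819372. Capitals mark matches, on either strand, to the searched motifs. Those of the cAMP response element were TTACGTCA (the variant known from Pck1), TGACGTCA (the full element) and TGACG (its half-site). The others were CCAAT (the CCAAT box), TATAAA (the TATA box) and CTTTGA (the TCF/LEF core).
Pck1: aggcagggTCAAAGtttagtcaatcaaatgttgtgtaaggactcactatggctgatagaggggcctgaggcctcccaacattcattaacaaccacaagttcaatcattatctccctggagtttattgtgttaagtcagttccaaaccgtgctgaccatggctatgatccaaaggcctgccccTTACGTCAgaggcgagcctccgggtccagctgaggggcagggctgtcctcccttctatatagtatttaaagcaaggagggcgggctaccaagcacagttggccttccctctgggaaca
Sds: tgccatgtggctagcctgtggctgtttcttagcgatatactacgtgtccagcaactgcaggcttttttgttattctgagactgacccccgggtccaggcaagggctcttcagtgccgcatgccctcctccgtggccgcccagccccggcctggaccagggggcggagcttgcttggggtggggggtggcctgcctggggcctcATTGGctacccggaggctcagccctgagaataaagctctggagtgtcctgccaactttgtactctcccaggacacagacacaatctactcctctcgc
Cyp2f2: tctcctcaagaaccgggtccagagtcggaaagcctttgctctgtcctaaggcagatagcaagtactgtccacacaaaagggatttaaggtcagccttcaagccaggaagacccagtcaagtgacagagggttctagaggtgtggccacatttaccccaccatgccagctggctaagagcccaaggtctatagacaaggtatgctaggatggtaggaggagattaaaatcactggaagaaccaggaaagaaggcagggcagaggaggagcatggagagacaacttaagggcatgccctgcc
Of the 9 promoters only that of Pck1 held TTACGTCA, from base -68 to base -61 before the start, and 0.556% of 21751 promoters of protein-coding genes held it on either strand. The TGACG match of Pck1 lies within that element, and in all 3 of the 9 promoters (Hsd17b13, Pck1 and Gls2) held TGACG, against 22.6% of all. Pck1 also matched CTTTGA, as did Hsd17b13 (2 of 9, against 16.2% of all). The single capital stretch of Sds is a CCAAT match on the minus strand, and Fbp1, Gls2 and Tat held CCAAT too (4 of 9, against 39.9% of all). The promoter of Cyp2f2 held none of the 6 motifs, and TATAAA and TGACGTCA were in 0 of 9, against 13.2% and 2.45% of all. A match of these letters is a description and says nothing about binding.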

How the data were processed

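RNA of sorted hepatocytes was sequenced from a stranded total RNA kit. Per the submitters' processing notes, STAR 2.7.11a, featureCounts and the build GRCm39 were used. The authors deposited the resulting counts per gene as they were, with no scaling. The annotation, the strand setting and the handling of read pairs are not given in the sources used here. Among counts from 1 to 10, 74.2% to 81.4% per library were even, so counts may not be single fragments.

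Tests across genes were run in edgeR 4.0.16 (R 4.3.3) after TMM, with the default filter (minimum count 10, minimum total 15), all 15 libraries and the mouse as a block. P-values were adjusted by Benjamini-Hochberg over 17488 genes. Libraries of 1 subject number come from 1 mouse, and their residuals had a mean correlation of 0.158, over 0.1 in 20 of 21 pairs. No value for pairs of different mice is given beside it, so the correlation alone does not show the pairing. DESeq2 1.42.0 and ComBat-seq (sva 3.50.0) served as alternatives. The code was checked on simulated data. The 9 genes and the lists were chosen with earlier results of these data known. Named in the text were the 9 genes, up to 3 genes of each list with the smallest p, and the 3 genes most like each member. A few genes that this rule names are not reported here. The authors left out the 4n-top sample of mouse 1 because of poor RNA quality, and it was not analysed here.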

Additional observations from a re-analysis of the deposited data

Results flagged for a closer look

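In 27 groups of 4 libraries (the 9 genes in 2n-whole, 4n-whole and 4n-bottom), the gap between the outermost library and the next was compared with the range of the group and set against the 95% limit of Dixon's test. It was past the limit in 2 groups, and chance alone reaches it in some groups. Gls2 in 2n-whole had a ratio of 0.885, with mouse 4 at 814 CPM and the other mice at 634 to 655 CPM. Tat in 4n-whole had a ratio of 0.866, with mouse 3 at 2529 CPM and the other mice at 2049.8 to 2114 CPM. Neither gene was called between populations.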

How the results depend on the processing

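Beside leaving out mice, 3 alternatives changed the count of 3 genes called between 4n-whole and 2n-whole: it was 0 without the replicate block, 0 with the covariate for other cell types and 5 without a limit on the fold change, and 2 to 3 when a mouse was left out (Etnppl was lost without mouse 2 or 4). Between 4n-top and 2n-whole, with 0 called, it was 2 with ComBat-seq followed by DESeq2, 1 with the libraries compared only, 1 without a limit on the fold change, and 0 to 4 when a mouse was left out. Between 4n-whole and 4n-bottom, with 0 called, it was 0 to 3 when a mouse was left out. The other 3 comparisons of populations kept 0 under all alternatives run. Between mice 6 genes passed, 4 to 7 when a mouse was left out, 4 with the covariate and 4 without the 4n-top libraries. The mouse as a block changed no other call of the 9 genes. The causes were not tested.

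The sign turned in 25 fits, all for fold changes that were not called. For 4n-whole against 2n-whole, Pck1 ranged from -0.1721 to 0.0456 when a mouse was left out. For 4n-bottom against 2n-whole, Pck1 was at -0.0104 with DESeq2 and with its size factors, at -0.0047 with ComBat-seq and from -0.0194 to 0.0442 when a mouse was left out. In that comparison Gls2 was at -0.0097 with ComBat-seq and from -0.0539 to 0.0482 when a mouse was left out, Tat at -0.0273 with the covariate and from -0.017 to 0.0921, and Pigr from -0.0657 to 0.008, and with the covariate Fbp1 was at 0.0024 and Etnppl at 0.0618. For 4n-top against 2n-whole, Gls2 was at 0.1004 with the covariate, and Tat at 0.0033 with the libraries compared only and from -0.0904 to 0.0106 when a mouse was left out. For 4n-whole against 4n-bottom, Pck1 ranged from -0.1527 to 0.0393. For 4n-top against 4n-whole, Sds was at 0.032 without the replicate block, and leaving out a mouse gave -0.0446 to 0.2574 for Hsd17b13, -0.0371 to 0.1797 for Pigr and -0.0389 to 0.204 for Etnppl. Another 550 fits kept both direction and side of the threshold. With 3 or 4 mice a population, differences as small as the SE of a fold change were not detectable.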
